A study of Mus musculus with 6 samples.

Results

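The suppressor of cytokine signaling (SOCS) family was followed in epididymal white fat (eWAT), which surrounds the epididymis, of mice with lung cancer cachexia. Its 8 genes, Socs1 to Socs7 and Cish, were taken by gene name from a count table of 54532 genes, 29764 of which had any count. All 8 had enough counts to be tested. The study compared bulk RNA-seq of eWAT from 3 cachectic and 3 control mice, harvested on day 21. All were C57BL/6 mice with no engineered allele or transgene named in the labels, and the methods give male mice aged 6 to 10 weeks. Cachectic mice had received 5000000 LLC cells under the skin, a line grown from the Lewis lung carcinoma of mice, and the labels name the other mice as controls, for which the sources used here describe no mock injection. Cachexia was defined in the methods by loss of body weight in tumor-bearing mice, so tumor growth and weight loss cannot be told apart in this comparison. Whether a sample held tissue of 1 mouse is not stated in the labels, and the p-values measure the spread between these samples.

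Cytokine and growth hormone receptors without a kinase of their own signal through Janus kinases (JAKs), which phosphorylate STAT transcription factors. STATs then switch on SOCS genes, and the SOCS proteins bind the receptor or the kinase and turn the signal down, a classic negative feedback loop. Each SOCS protein joins an SH2 domain, which recognizes phosphotyrosine, to a SOCS box, which recruits a ubiquitin ligase built on elongins and a cullin. SOCS1 and SOCS3 can also block JAK activity directly. CIS (the product of Cish) and SOCS2 are known as products of STAT5 signaling, and SOCS4 to SOCS7 have been linked mainly to receptor tyrosine kinases and insulin signaling. In fat, SOCS proteins are known for limiting leptin, growth hormone and insulin signals.

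Coordinates are those of the deposited files, which match the GRCm38 annotation. Socs3 (ENSMUSG00000053113) lies on chromosome 11 from 117966079 to 117970047, and Socs1 (ENSMUSG00000038037) on chromosome 16 from 10782240 to 10785536, both on the minus strand. Socs2 (ENSMUSG00000020027) lies on the minus strand of chromosome 10 from 95385362 to 95417180, and Cish (ENSMUSG00000032578) on the plus strand of chromosome 9 from 107296026 to 107302784. Socs4, Socs5, Socs6 and Socs7 lie on chromosomes 14, 17, 18 and 11. Cish was the only member that overlaps other genes. Gm17040 and Gm17041, on its other strand, share 261 and 479 exon bases with it, but they held only 71 and 0 counts over the 6 samples.

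STAT dimers bind the palindrome TTCNNNGAA, which reads the same on both strands. In the RefSeq promoter table for GRCm38.p6, 7.02% of 32851 promoters held this motif in the 250 bases before the start. Promoters of 4 members were in the table (Cish, Socs1, Socs3 and Socs4), and only that of Socs3 held a match, TTCTTAGAA, from 154 to 146 bases before the start. The promoters of Socs3, the member that rose, and of Socs1, the other direct JAK inhibitor, are printed here 5′ to 3′ on the minus strand, with the motif in capitals. The Socs3 window is chr11:117969367-117969616, and 77 of its bases fall in an exon of a noncoding Socs3 transcript. It ends 181 bases upstream of the start of the protein-coding transcript in GENCODE, and the bases between were not searched. The position of the match is counted from the RefSeq start, at the end of the window. The Socs1 window is chr16:10785537-10785786, directly upstream of the gene. The Cish window lies inside the gene, past the start of its GENCODE protein-coding transcript, with all 250 bases in a UTR, so sequence upstream of that start was not searched for Cish.
Socs3: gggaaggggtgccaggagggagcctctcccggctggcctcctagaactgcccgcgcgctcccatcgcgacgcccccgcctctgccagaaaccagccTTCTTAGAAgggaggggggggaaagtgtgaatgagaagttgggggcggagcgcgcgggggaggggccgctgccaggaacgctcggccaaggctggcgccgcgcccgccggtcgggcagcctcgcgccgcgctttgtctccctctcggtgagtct
Socs1: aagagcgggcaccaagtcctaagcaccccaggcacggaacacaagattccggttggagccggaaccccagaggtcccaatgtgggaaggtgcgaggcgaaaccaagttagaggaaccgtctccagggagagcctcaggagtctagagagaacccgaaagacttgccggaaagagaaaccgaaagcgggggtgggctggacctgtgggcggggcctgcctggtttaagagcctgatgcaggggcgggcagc
The Socs3 window was richer in G and C (71.6%) than that of Socs1 (61.2%). A match is a description of letters, and binding of a STAT was not measured in these samples.

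Expression was compared as CPM, counts scaled to a common library size with TMM factors. Library totals lay between 14928766 and 18855546. In a chi-square per degree of freedom over genes, control replicate 1 lay 58.3 and 45.5 from control replicates 2 and 3. The value was 12.7 between control replicates 2 and 3, and from 63.0 to 81.7 between cachectic samples. Of the 16003 genes tested across the tissue, 17.6% had an adjusted p-value under 0.05 in edgeR's quasi-likelihood test with Benjamini-Hochberg adjustment, 9.00% higher and 8.63% lower in cachectic mice. In the SOCS family, 1 of 8 genes (12.5%) passed, Socs3, and it was higher. Socs2 had an unadjusted p-value under 0.05 in the same test and did not pass after adjustment. The share of all genes under that unadjusted cutoff was not counted here. The ranges of both groups stayed apart for 1 member, again Socs3, against 40.5% of all tested genes. The median log2 fold change of the family was -0.04, beside -0.0031 for all tested genes. With 3 samples in each group, the smallest p-value of a two-sided exact permutation test is 0.1.

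**Figure D1:**
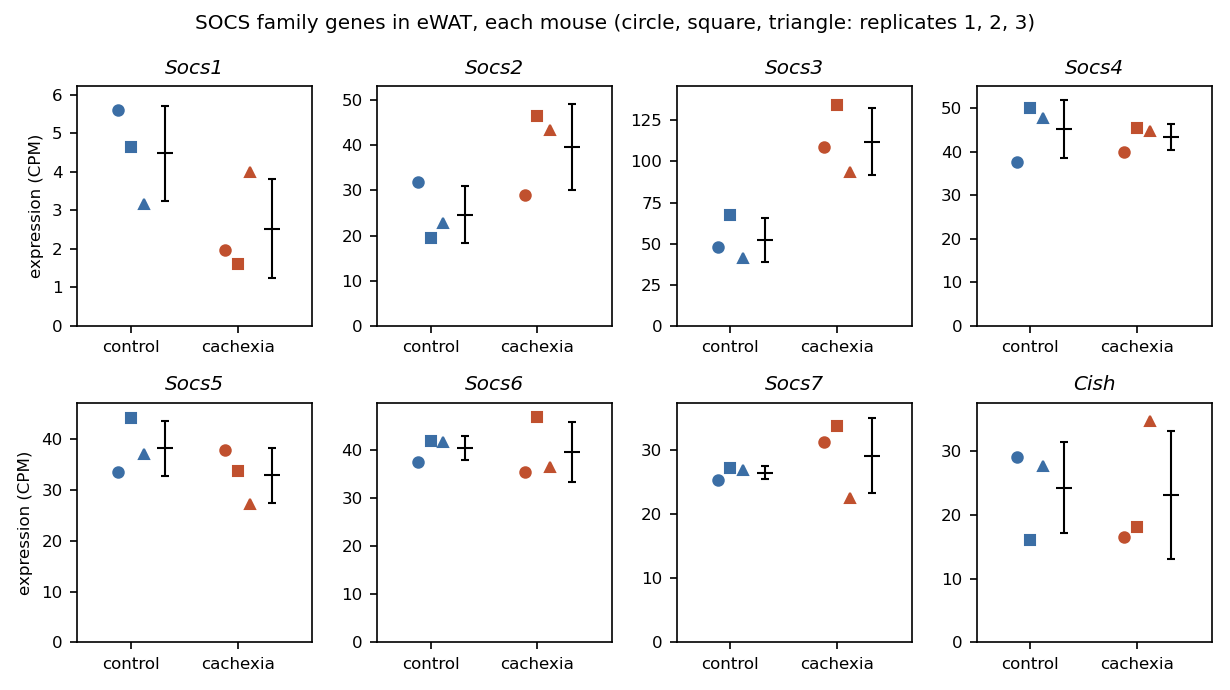
Expression of the 8 SOCS family genes in each sample, in CPM on a linear axis from 0, with the control group in blue and the cachexia group in red. Circles, squares and triangles are replicates 1, 2 and 3, numbered within each group, and black marks give the mean and SD. For Socs3 the lowest cachectic value, 93.6, lies above the highest control value, 67.2, while the groups overlap for every other member.

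Socs3, which binds the gp130, leptin and G-CSF receptors and inhibits the JAKs attached to them, was expressed at 47.8, 67.2 and 41.3 CPM in control replicates 1, 2 and 3. In cachexia replicates 1, 2 and 3 it reached 108.5, 134 and 93.6 CPM. All cachectic mice were above all control mice, and the highest value in each group was that of replicate 2. The mean rose from 52.1 ± 13.5 (SD, n = 3) to 112 ± 20.5 CPM (SD, n = 3), or 2.15-fold. On the log2 scale the change was 1.10 with a standard error of 0.22, and the adjusted p-value was 0.0141 in edgeR's quasi-likelihood test with Benjamini-Hochberg adjustment. The exact permutation test gave p = 0.1, its smallest possible value. Between 729 and 2184 counts lay behind each value. The adjusted p-value passed the threshold in 15 of 16 other settings, and the exception was the test without control replicate 3 (log2 fold change 0.96, adjusted p = 0.0651 with edgeR). That fit called 828 of 16502 genes over the tissue, against 2821 of 16003 with all samples. Without control replicate 1 the log2 fold change of Socs3 was 1.046 (adjusted p = 0.0404 with edgeR).

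Markers of other cells moved with the group. The summed expression of 15 neutrophil markers was between 38.6 and 58.8 CPM in control mice and between 288 and 853 CPM in cachectic mice. Of the 13 tested, 11 were higher (84.6%, beside 9.00% of all genes), while the defining marker Ly6g was at 0 in every control mouse. The order of the cachectic mice differed between these markers, since S100a9 was highest in replicate 3 (340 CPM, against 102 and 79.1) and Csf3r was lowest there (12.3 CPM, against 30.5 and 27.6). The sum of 8 endothelial markers was between 1527 and 1620 CPM in control mice and between 2219 and 3243 CPM in cachectic mice. Of these 8, 4 were higher (50%, beside 9.00% of all genes). The part of either cell type in the Socs3 difference was not tested, and in bulk tissue more cells of a type and more RNA per cell cannot be told apart.

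Socs1, the main brake on interferon gamma signaling and the other direct JAK inhibitor, had the largest negative log2 fold change of the family without passing the test. Its expression was 5.62, 4.64 and 3.17 CPM in control mice and 1.98, 1.60 and 3.999 CPM in cachectic mice. Both of the lowest values came from cachectic mice, but cachexia replicate 3 lay above control replicate 3, so the groups overlapped. The means were 4.48 ± 1.23 (SD, n = 3) and 2.53 ± 1.29 CPM (SD, n = 3). The log2 fold change of -0.83 had a standard error of 0.43, with an adjusted p-value of 0.213 in edgeR's test. It was the member with the fewest counts, between 26 and 112, and with the largest standard error. How much of that error came from low counts was not tested. T and NK cell markers, whose cells are known to express Socs1, summed to between 18.1 and 25.6 CPM in control mice and between 8.26 and 17.0 CPM in cachectic mice. Of the 10 tested, 1 was lower, Trac (10%, beside 8.63% of all genes). The part of these cells in the Socs1 values was not tested.

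Socs2, a product of growth hormone and STAT5 signaling that limits growth hormone action, was expressed at 31.8, 19.4 and 22.8 CPM in control mice. It stood at 28.9, 46.6 and 43.4 CPM in cachectic mice. Cachexia replicates 2 and 3 were above all control mice, and replicate 1 was below control replicate 1. The means were 24.7 ± 6.39 (SD, n = 3) and 39.6 ± 9.43 CPM (SD, n = 3). The log2 fold change of 0.68 had a standard error of 0.24, and its p-value in edgeR's test was 0.0224 before and 0.0887 after adjustment. Socs2 passed only in the fit without control replicate 1, the highest of the controls. There the log2 fold change was 0.91 and the adjusted p-value was 0.0481 in edgeR's test, and in none of the other 15 settings did Socs2 pass. It came near the threshold with DESeq2 (adjusted p = 0.0526) and without cachexia replicate 1 (adjusted p = 0.0525 with edgeR).

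Cish, the other STAT5 product of the family, stood at 29.0, 16.05 and 27.5 CPM in control mice and at 16.6, 18.1 and 34.7 CPM in cachectic mice. Both groups held low and high mice, and the lowest value of all came from a control mouse and the highest from a cachectic mouse. The means were 24.2 ± 7.11 (SD, n = 3) and 23.1 ± 10.04 CPM (SD, n = 3). The log2 fold change of -0.07 was smaller than its standard error of 0.33 (adjusted p = 0.904, edgeR). The sign turned when any of control replicates 1 and 3 or cachexia replicates 1 and 2 was left out, with log2 fold changes between 0.03 and 0.12, while without cachexia replicate 3 it was -0.48. Thus no direction can be given for Cish.

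The 4 members linked to receptor tyrosine kinases and insulin signaling did not pass the test. Socs4 and Socs5, both linked to the EGF receptor, lay between 37.6 and 49.98 CPM and between 27.1 and 44.1 CPM over all 6 mice. Socs6 and Socs7, which bind KIT and insulin receptor substrates, lay between 35.4 and 46.7 CPM and between 22.5 and 33.7 CPM. In each of the 4 the groups overlapped. Log2 fold changes were -0.06 for Socs4, -0.21 for Socs5, -0.03 for Socs6 and 0.14 for Socs7, with standard errors between 0.14 and 0.17 and adjusted p-values between 0.410 and 0.907 in edgeR's test. Scaled by plain library totals, Socs4 and Socs6 changed sign, to 0.0030 and 0.03.

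**Figure D2:**
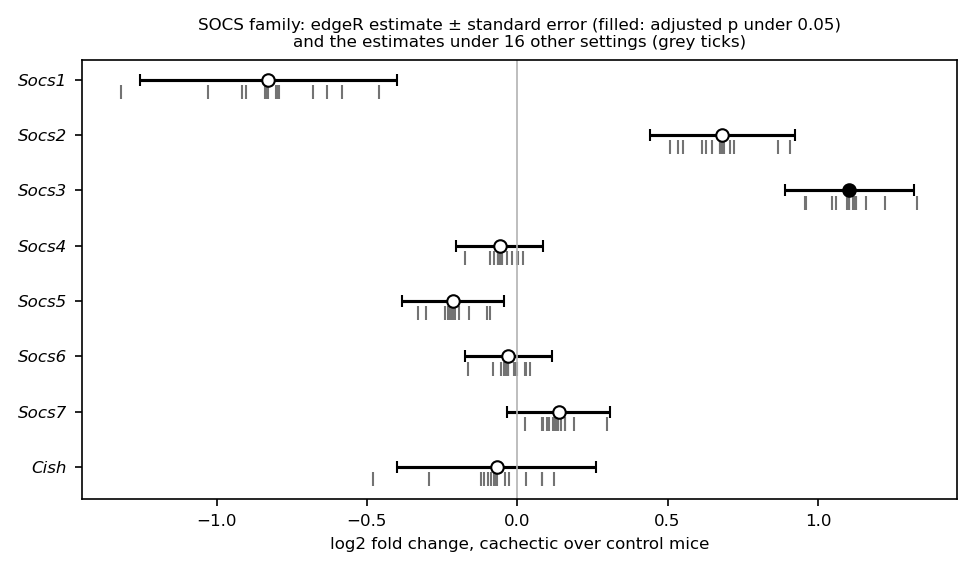
Log2 fold change of cachectic over control mice for each SOCS family gene, with edgeR's estimate as a circle and a standard error derived from its F statistic as a bar. Grey ticks below are the estimates under 16 other settings. The filled circle marks the adjusted p-value under 0.05. Socs3 stays between 0.96 and 1.33, Socs2 between 0.51 and 0.91 and Socs1 between -1.32 and -0.46, while the ticks of Socs4, Socs6 and Cish fall on both sides of 0.

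Levels of different genes were compared as FPKM, which divides by gene length. That length is 1 value per gene, from 2891 bases for Socs3 to 9531 for Socs2, which has 14 annotated transcripts. The transcripts in use were not measured, so the order below holds for these lengths only. Socs3 had the highest level of the family in both groups, 17.8 ± 4.57 (SD, n = 3) FPKM in control mice and 37.9 ± 6.91 FPKM (SD, n = 3) in cachectic mice. In control mice it was followed by Socs5 at 8.58 FPKM, Socs4 at 6.48, Socs6 at 4.84, Cish at 3.73, Socs7 at 3.60, Socs2 at 2.56 and Socs1 at 1.52. Among these neighbours only Cish and Socs7 had ranges that overlapped. Beyond neighbours, the lowest control value of Cish, 2.46 FPKM, lay below the highest of Socs2, 3.30, so the order of Cish and Socs2 was not resolved. In cachectic mice the order below Socs3 was Socs5 at 7.32 FPKM, Socs4 at 6.16, Socs6 at 4.69, Socs2 at 4.06, Socs7 at 3.92, Cish at 3.52 and Socs1 at 0.849. Socs2 moved from next to last to the fifth place by its mean, but its range in cachectic mice overlapped those of Socs6, Socs7 and Cish. The ranges of Socs5 and Socs4 and of Socs7 and Cish overlapped as well, so the middle of this order was not resolved.

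**Figure D3:**
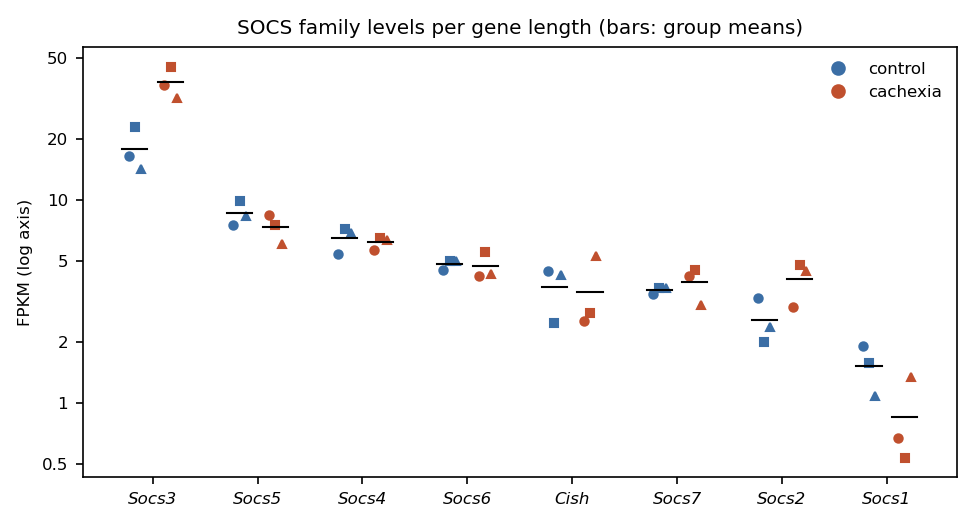
Level of each SOCS family gene in FPKM on a logarithmic axis, ordered by the control mean, with controls in blue and cachectic mice in red. Circles, squares and triangles are replicates 1, 2 and 3, and black bars are group means. Socs3 stands above every other member in all 6 samples, and Socs1 has the lowest mean in both groups.

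Socs3 took a larger share of the family's FPKM in cachectic mice, with the same gene lengths in both groups. Of the summed FPKM of the 8 genes, Socs3 took 34.8%, 41.9% and 30.9% in control replicates 1, 2 and 3. It took 56.2%, 58.5% and 50.6% in cachexia replicates 1, 2 and 3. The groups did not overlap. The sum of the other 7 genes was 31.3 ± 0.622 (SD, n = 3) FPKM in control mice and 30.5 ± 1.68 FPKM (SD, n = 3) in cachectic mice, with ranges of 30.6 to 31.8 and 28.7 to 32.0. These sums describe the same values that were tested gene by gene and carry no test of their own.

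Ratios within a sample cancel the scaling of the library and were tested for 6 pairs of genes by two-sided exact permutation tests of 3 against 3 samples. The log2 ratio of Socs3 to Socs1 was 3.40 ± 0.380 (SD) in control mice and 5.28 ± 0.823 in cachectic mice, a difference of 1.88 with no overlap (exact p = 0.1, 0.3 after Benjamini-Hochberg adjustment over the 6 ratios). The log2 ratio of Cish to Socs2, the STAT5 products, was -0.04 ± 0.274 in control mice and -0.81 ± 0.510 in cachectic mice, a difference of -0.77 with no overlap (exact p = 0.1, adjusted 0.3). Neither passed the threshold, which this design cannot reach. The ratio of Socs3 to Stat3, a known activator of it, differed by 0.08 between the groups (exact p = 0.8, adjusted 0.8) and was lowest in cachexia replicate 3, at -2.36, against -1.41 and -1.42 in the other cachectic mice. Differences for Socs3 over Socs2 (0.44), Socs2 over the growth hormone receptor Ghr (1.24) and Cish over Stat5b (-0.36) came with overlapping groups and exact p-values of 0.3, 0.2 and 0.7 (adjusted 0.45, 0.4 and 0.8).

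The genes whose pattern over the 6 samples was most like a member's were found among 13723 tested protein-coding genes, by the root mean square difference of log2 CPM after centering each gene on its own mean. For Socs1 these were Bcl2a1d (0.0836), the cytokine gene Tnf (0.105) and Lgi1 (0.112), all expressed under 4 CPM. For Socs2 they were Slc25a30 (0.104), Echdc2 (0.125) and Tmem176b (0.132). Socs3 was closest to Smad9 (0.115), Pex6 (0.118) and Ngb (0.139), and Cish to Kif5a (0.0641), Hopx (0.111) and Dnah8 (0.139). The measure takes in the difference between the groups as well as the spread within them, so these lists carry no test.

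Among the upstream kinases and STATs, 1 gene of each list rose and the rest did not pass (25% of the Janus kinases and 14.3% of the STAT genes, beside 17.6% of all genes). Of 4 Janus kinases, Jak3, which pairs with the common gamma chain of lymphocyte receptors, rose from 51.5 ± 6.66 (SD, n = 3) to 115 ± 9.83 CPM (SD, n = 3), or 2.24-fold (adjusted p = 0.00326, edgeR). Jak3 shares 404 exon bases with Insl3 on its strand, which held 248 counts in all. Jak1 (0.05), Jak2 (0.23) and Tyk2 (-0.07) are given as log2 fold changes and did not pass. Of 7 STAT genes, Stat3 stood at 157, 202 and 182 CPM in control mice and at 289, 359 and 482 CPM in cachectic mice. It rose in all cachectic mice, by 1.06 ± 0.22 (standard error) on the log2 scale (adjusted p = 0.0162, edgeR). Stat5a, which shares 72 exon bases with Stat3 on the other strand, had a log2 fold change of -0.62 with no overlap between the groups, but its adjusted p-value was 0.0813 in edgeR's test. Values for Stat5b (0.26) and Stat6 (-0.15) did not pass either. No STAT gene passed in the fit that dropped control replicate 3 (0 of 7), and 2 passed in the fit that dropped cachexia replicate 1. Over all genes those fits called 828 of 16502 and 2017 of 16631, against 2821 of 16003 with all samples.

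Ligands were called at about the rate of all genes. Of 20 genes for ligands of JAK-coupled receptors, 12 were tested, 2 were lower and 0 higher in edgeR's test (16.7%, beside 17.6% of all genes). Lif, a gp130 cytokine, fell from 5.42 ± 0.517 (SD, n = 3) to 0.823 ± 0.519 CPM (SD, n = 3), and Lep, the fat hormone leptin, fell from 1020.4 ± 212 to 116 ± 111 CPM (adjusted p = 0.00947 and 0.0475 with edgeR). Il6 was listed at 0.151, 1.09 and 0.0567 CPM in control mice and at 1.17, 3.56 and 5.11 CPM in cachectic mice, a log2 fold change of 2.92 that missed the threshold (adjusted p = 0.0692, edgeR). Osm, a further gp130 cytokine, had a log2 fold change of 0.72 with overlapping groups. DESeq2 called 5 of these ligands, and edgeR called 1 without control replicate 3. Over all genes those fits called 3884 of 16003 and 828 of 16502.

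Of 24 tested receptor genes, 7 were higher and 3 lower (41.7%, beside 17.6% of all genes). Il6st, which encodes gp130, stood at 394, 448 and 426 CPM in control mice and at 652, 758 and 685 CPM in cachectic mice, a log2 fold change of 0.72 (adjusted p = 0.0201, edgeR). Lepr, the leptin receptor, rose by 1.29 (adjusted p = 0.0129) and Csf3r, the G-CSF receptor and also a neutrophil marker, by 2.20 on the log2 scale (adjusted p = 0.0071), both with edgeR. Epor, the erythropoietin receptor, did not pass (0.25, adjusted p = 0.483, edgeR). Il6ra (1.22), Il4ra (1.82), Csf2rb (1.95) and Ifngr1 (0.74) rose as well. Il2rb (-1.37), Ifngr2 (-0.57) and Il11ra1 (-0.52) fell, so the subunits of the interferon gamma receptor changed in opposite directions. Ghr, the receptor upstream of Socs2 and Cish, had a log2 fold change of -0.51 with overlapping groups (adjusted p = 0.322, edgeR), and Prlr (-0.46), Lifr (0.59) and Osmr (0.88) did not pass. The number of receptors called was 6 without control replicate 2 and 3 without control replicate 3. Over all genes those fits called 1312 of 16576 and 828 of 16502.

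Among the partners of the SOCS box in the ubiquitin ligase, 14.3% were called, beside 17.6% of all genes. Of 7 tested genes of the ligase, only Arih2, a ubiquitin ligase that works with cullin 5 complexes, was higher (log2 fold change 0.50, adjusted p = 0.0261, edgeR). The call was lost (0 of 7) with any control mouse or with cachexia replicate 1 or 2 left out. Over all genes those fits gave between 828 and 2187 calls, against 2821 with all samples. Elob, which encodes elongin B, stood at 129, 99.3 and 116 CPM in control mice and at 82.3, 59.8 and 98.1 CPM in cachectic mice. These groups did not overlap, but the log2 fold change of -0.52 did not pass (adjusted p = 0.109, edgeR). Eloc (-0.10), Cul5 (-0.01) and Rnf7 (-0.06) had overlapping groups. Of 20 tested genes for other SOCS box proteins, 1 was higher and 1 lower (10%, beside 17.6% of all genes). Rab40b, a small GTPase with a SOCS box, rose by 1.66 on the log2 scale (adjusted p = 0.0118, edgeR), and Asb12 was listed at 1.10, 6.59 and 2.10 CPM in control mice and at 0.0583, 0 and 0 CPM in cachectic mice. Leaving out control replicate 3 gave 1 call in this list, and leaving out cachexia replicate 2 gave 4, beside 828 of 16502 and 2026 of 16574 genes over the tissue.

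Among 14 other inhibitors of the pathway, 1 gene was higher and 1 lower (14.3%, beside 17.6% of all genes), and the median log2 fold change was 0.0060. Lnx1, a ubiquitin ligase that shares 466 exon bases with Fip1l1 on the other strand, rose by 1.35, and Ptprc, the CD45 phosphatase of leukocytes, fell by 0.79 on the log2 scale (adjusted p = 0.0283 and 0.0136 with edgeR). The phosphatases Ptpn2 (0.41) and Ptpn6 (-0.49) did not pass, and Ptpn1 stood at 64.5 and 64.3 CPM in control and cachectic mice. Without control replicate 2 or 3 the count was 0 of 14, in fits that called 1312 of 16576 and 828 of 16502 genes over the tissue.

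Among 17 receptors and adaptors bound by SOCS proteins, 4 were higher and 1 lower (29.4%, beside 17.6% of all genes). Besides Il6st and Lepr, the insulin receptor gene Insr rose by 1.19 (adjusted p = 0.00868) and the insulin receptor substrate gene Irs2 by 1.42 on the log2 scale (adjusted p = 0.0259), both with edgeR. Egfr, the target linked to SOCS4 and SOCS5, fell by 1.19 on the log2 scale, from 144 ± 18.03 (SD, n = 3) to 63.4 ± 15.8 CPM (SD, n = 3). Irs1 (-0.20) and Kit (0.39) did not pass, and Kit ranged from 8.57 to 63.0 CPM among cachectic mice. The count was 2 without control replicate 3, in a fit that called 828 of 16502 genes over the tissue.

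Targets of the STATs that induce the family were read beside it. Of 18 STAT3 targets, 5 were higher and 0 lower, Socs3 among them, and 15 had a log2 fold change above 0 (list median 0.66). The share called was 27.8%, beside 17.6% of all genes. The other 4 were Cebpd (2.13), Il4ra (1.82), Icam1 (1.35) and the kinase gene Pim1 (1.12), of which Cebpd shares 562 exon bases with Spidr on the other strand. DESeq2 called 10 of these genes, and edgeR called 3 without control replicate 3. Over all genes those fits called 3884 of 16003 and 828 of 16502. Of 9 tested STAT5 targets, which include Socs2 and Cish, 1 was higher (Pim1) and 2 were lower (33.3%). Igf1, the growth factor induced by growth hormone, stood at 618, 544 and 661 CPM in control mice and at 289, 187 and 325 CPM in cachectic mice, and Bcl6, a repressor, fell by 2.04 on the log2 scale (adjusted p = 0.0137 and 0.0197 with edgeR). Thus Igf1 fell while Socs2 and Cish, listed with it, did not pass the test in either direction. The list does not separate genes that STAT5 induces from genes it represses, so the fall of Bcl6 was not read with that of Igf1. Without control replicate 3 the STAT5 count was 0 of 9. Of 20 targets of interferon gamma, the pathway of Socs1, 2 were higher and 3 lower (25%, beside 17.6% of all genes). The log2 fold changes were 0.71 for the transcription factor gene Irf1, 0.65 for the immunoproteasome gene Psmb8, -1.84 for the chemokine gene Cxcl9, -1.87 for Ciita and -0.82 for Irf8. Ciita shares 329 exon bases with Dexi on the other strand. This list held 3 calls without control replicate 2 and 1 without control replicate 3, beside 1312 of 16576 and 828 of 16502 genes over the tissue.

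**Figure D4:**
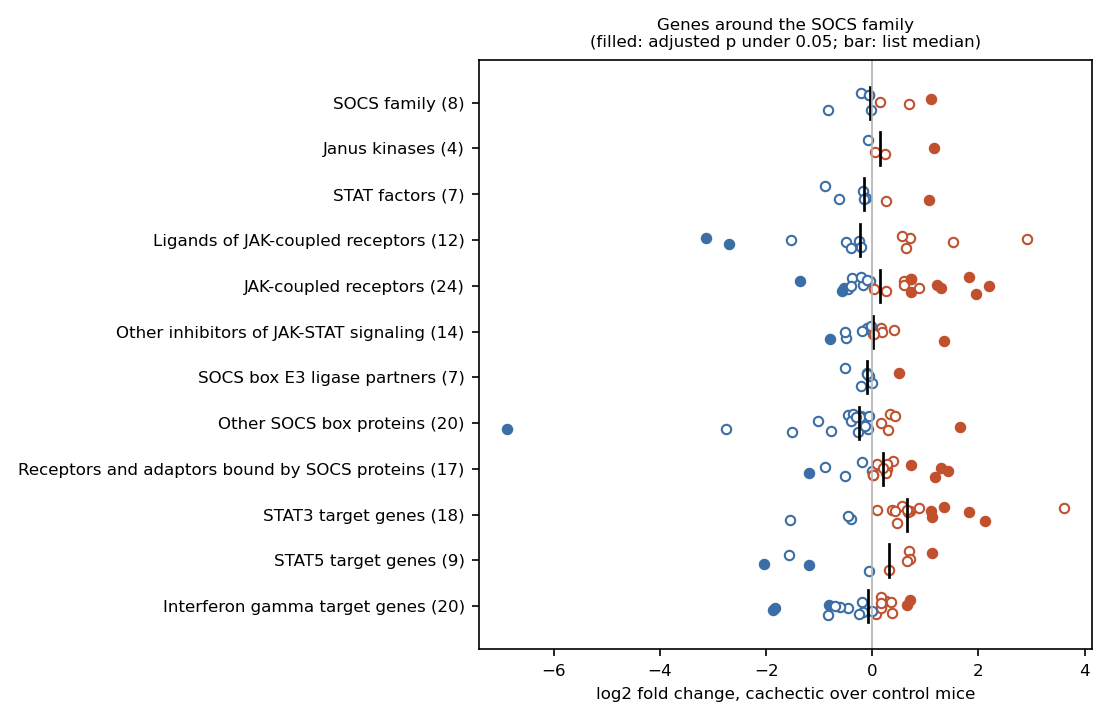
Log2 fold change of cachectic over control mice for every tested gene of the SOCS family and of 11 lists around it, with the number of tested genes in brackets. Red circles lie above 0 and blue below, filled circles have an adjusted p-value under 0.05 in edgeR's test, and black bars are list medians. The STAT3 targets have the highest median, 0.66, and the SOCS family has a median of -0.04.

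The tissue carried its label, with adipocyte markers summing to between 26179 and 43845 CPM and epididymis markers to at most 4.21 CPM in any sample. Over control and cachectic mice, macrophage markers summed to between 1604 and 2010 and between 1316 and 2010 CPM, B cell markers to between 418 and 527 and between 11.5 and 130 CPM, and erythroid markers to between 252 and 451 and between 1334 and 2856 CPM. Fat progenitor and fibroblast markers lay between 5385 and 6187 and between 2494 and 3454 CPM. Mesothelial markers lay between 349 and 375 and between 159 and 373 CPM, and skeletal muscle markers between 24.2 and 40.7 and between 7.12 and 58.8 CPM, with Myh4 at 0 in every sample. All 6 tested erythroid markers were higher (100%, beside 9.00% of all genes). Of 9 fat progenitor and fibroblast markers, 1 was higher and 4 lower (55.6%, beside 17.6% of all genes). The share called was 30% of adipocyte, 16.7% of macrophage and 12.5% of B cell markers, and 0% of mesothelial and skeletal muscle markers. The part of these shifts in the values of Socs1, Socs2 and Socs3 was not tested.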

How the data were processed

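Bulk RNA-seq of eWAT from 3 control and 3 cachectic mice was analyzed, grouped by the sample labels. The authors' raw counts came from quality-filtered reads after Hisat2 alignment, with featureCounts (1.5.0-p3 in the submitters' processing notes) as the counter, and were deposited without normalization. The authors' deposited FPKM values equal counts scaled by gene length and library total, times a further factor per sample (0.932 to 1.06) whose rule is not given in the sources used here. The notes list mm9, but 99.8% of the gene identifiers are in GENCODE M21 and 98.3% of these have its GRCm38 coordinates. Use of strand in counting was not stated. A deposited table of the authors' own comparison (fold changes, p-values, 6 per-sample and 2 mean columns) was not used.

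The whole count table was fitted with edgeR 4.0.16 in R 4.3.3 (low genes removed by filterByExpr, TMM, quasi-likelihood test, Benjamini-Hochberg over 16003 genes, threshold 0.05, no covariates). The biological coefficient of variation was 0.264. Standard errors given with edgeR's estimates were derived as the absolute log2 fold change divided by the square root of the test's F statistic. Precision depends on counting error, at totals of 14928766 to 18855546 counts, and on variation between the 3 samples of each group. Single genes and ratios were also tested by exact permutation on log2 CPM (pseudocount 0.5). No 2 samples were near-identical. The test was tried on simulated counts first. DESeq2 1.42.0 and limma 3.58.1 (voom, and log2 FPKM with pseudocounts of 0.1 and 1) were alternatives, with other scaling, other filters, protein-coding genes alone, a replicate block and each sample left out.

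The family and the gene lists were chosen with earlier results of these data known. Named genes are the 8 members, genes fixed by name in each list, and up to 4 further called genes of a list in each direction by smallest p-value, apart from what is not reported here. Alike genes are the 3 closest by the stated measure. Sequences came from RefSeq, and promoters of Socs2, Socs5, Socs6 and Socs7 were not analysed here.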

Additional observations from a re-analysis of the deposited data

How the results depend on the processing

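Over 16 other settings, no log2 fold change of Socs1, Socs2, Socs3, Socs5 or Socs7 changed sign. The number of family genes called was 1 with edgeR and also with DESeq2, limma-voom, limma on FPKM, other scaling and other filters. With single samples left out it ranged from 0 (without control replicate 3, where the unadjusted p-value of Socs3 was under 0.05 in edgeR's test) to 2 (without control replicate 1, Socs2 and Socs3). Over the same settings the number of all genes called ranged from 828 of 16502 (without control replicate 3) to 2339, against 2821 of 16003 with all samples. It was 2187 without control replicate 1 and 1312 without control replicate 2. The number of pathway list genes called, 32 with all samples, ranged from 11 (without control replicate 3) to 31. DESeq2 called 3884 genes. Fits with 1 sample left out have the same number of samples, and the cause of their spread was not tested.

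Signs near 0 turned. Plain library totals gave log2 fold changes of 0.0030 for Socs4 and 0.027 for Socs6. With single samples left out, Socs4 ranged from -0.175 to 0.020 (above 0 without control replicate 2), Socs6 from -0.164 to 0.044 (above 0 without cachexia replicate 1 or 3) and Cish from -0.478 to 0.123 (above 0 without control replicate 1 or 3 or cachexia replicate 1 or 2). The difference of the Socs3 to Stat3 ratio ranged from -0.084 to 0.394 and lay below 0 without control replicate 3, cachexia replicate 1 or cachexia replicate 2. Plain totals moved the median of all genes to 0.046.

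The labels state no pairing of mice by replicate number. Deviations of same-numbered samples correlated at -0.0031, -0.0113 and 0.0085, and not every sample correlated best with its own number. With 3 samples in each group, such values cannot exclude a pairing. With a replicate block, Socs3 had a log2 fold change of 1.12 (adjusted p = 0.0103 with edgeR), 1 family gene was called, and 1881 of all genes were called. STAT3 targets had 8 calls, other inhibitors 1 and ligase partners 0 under the block, and no member's call changed.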
